A study of Drosophila melanogaster with 4 samples.

Results

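The dimethyl mark on lysine 27 of histone H3 (H3K27me2) was followed along chromosome 4 of Drosophila melanogaster, divided into consecutive bins of 5 kb from its first base. The chromosome measures 1351857 bp in FlyBase release 5 coordinates and gave 271 bins, out of 27949 bins over the 13 sequences that carry enriched regions. Every bin of the sequence was included, so no measured value chose them. The study is a ChIP-seq experiment on nuclei of wild-type larvae of instar 3, strain Oregon-R-modENCODE, with antibody Ab24684, and has 2 ChIP samples and 2 input samples. The authors' enriched regions (clusters) were listed for each ChIP sample, and a combined list covers the pair. All groups share genotype, strain and stage. The labels leave unsaid whether each replicate was a separate population of larvae, so SDs measure only the spread between these samples, which may be technical. The p-values rest on the same 2 samples and show only whether both differences have the same sign. The files hold regions and no read counts, so the depth behind each value is unknown.

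H3K27me2 is placed by E(z), the methyltransferase of Polycomb repressive complex PRC2. The same enzyme places H3K27me3, the mark of Polycomb-silenced genes, while the dimethyl state is the broader of the pair and is spread over much of transcriptionally inactive euchromatin. Chromosome 4 is the small dot chromosome of the fly, and base 1 of its assembled sequence is taken here as the centromere side, which is background knowledge and not recorded in the files. Its assembled arm carries genes among repeats and is rich in H3K9 methylation and the heterochromatin protein HP1, and a protein specific to this chromosome, POF, binds many of its genes. Developmental regulators such as ci (the Hedgehog pathway transcription factor), ey and toy (Pax6 genes of eye development), zfh2 and Sox102F lie here. The RefSeq gene table, which uses release 6, lists 114 genes on the chromosome, 80 of them protein-coding. Its coordinates are of another build and clusters were not assigned to genes.

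Chromosome 4 carried little H3K27me2 enrichment. Clusters covered 85.8 kb of it in replicate 1 and 121.3 kb in replicate 2, which is 6.34% and 8.97% of the sequence, with a mean of 7.66% ± 1.86 (SD, n = 2). The combined list covered 127.1 kb or 9.40%. On the large arms (2L, 2R, 3L, 3R and X together) replicates 1 and 2 covered 43.6% and 37.9%, and the combined list 53.1%. Chromosome 4 was thus lower by 37.3 and 28.9 percentage points within the libraries of replicates 1 and 2, which averages -33.1 ± 5.91 (SD over the 2 libraries). The 6 placed heterochromatin scaffolds (Het scaffolds) had 17.4% and 25.6%, and chromosome 4 differed from them by -11.1 and -16.6 percentage points, on average -13.8 ± 3.92 (SD over the 2 libraries). On U, sequence with no assigned place, clusters covered 8.80% in replicate 1 and 8.35% in replicate 2, so chromosome 4 differed by -2.46 percentage points in replicate 1 and by 0.616 in replicate 2. The combined list covered 17.7% of U, a difference of -8.32. For the large arms and for the Het scaffolds the exact permutation test by sign flips, two-sided, gave p = 0.5, the smallest value that n = 2 allows. When the large arms were divided into 86 consecutive windows of the length of chromosome 4, the mean covered share of the replicates ran from 20.3% to 64.6%, and 0 of the 86 windows lay at or below chromosome 4. Assembly gaps and repeats in which reads cannot be placed were not excluded from any of these shares.

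**Figure D1:**
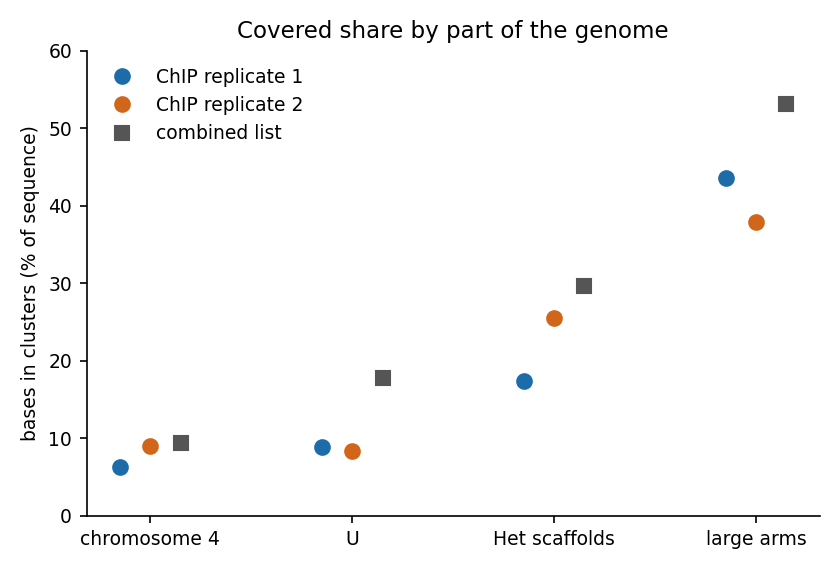
Share of bases in clusters (percent of the sequence, y axis) on chromosome 4, on U (sequence with no assigned place), on the Het scaffolds and on the large arms, with 1 point for each ChIP replicate and a square for the combined list. Chromosome 4 lies between 6.34% and 9.40% in the 3 lists, against 37.9% to 53.1% on the large arms.

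The order of the replicates was turned round on chromosome 4. Replicate 1 covered 0.707 times as much of it as replicate 2, whereas on the large arms it covered 1.15 times as much, with ratios from 1.10 on 2L to 1.25 on X. Most of the 86 windows of the large arms were fuller in replicate 1, but some had the order of chromosome 4. Replicates 1 and 2 covered 24.5% and 37.8% of 2R from 1 to 1351857. They covered 26.8% and 41.7% of 3L from 22981570 to 24333426, and 25.9% and 33.7% of 2L from 21629713 to 22981569. The Het scaffolds together had a ratio of 0.68 and so lay close to chromosome 4, although the small scaffolds XHet and YHet had ratios of 1.02 and 1.37. With a single pair of replicates this contrast has no error of its own and was not tested.

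Most bins of chromosome 4 were free of clusters. The number of touched bins was 43 (15.9%) for replicate 1, 58 (21.4%) for replicate 2 and 57 (21.0%) for the combined list, with a mean of 50.5 ± 10.6 bins for the replicates (SD, n = 2). The background over 23809 bins of the large arms was 72.4% for replicate 1, 64.7% for replicate 2 and 78.2% for the combined list. Bins covered over at least 50% of their length numbered 8, 21 and 15 on chromosome 4, or 2.95%, 7.75% and 5.54%, beside 44.3%, 38.2% and 55.3% on the large arms. Fully covered bins were rare, with 1 for replicate 1, 3 for replicate 2 and 2 for the combined list, where the background was 8.02%, 5.7% and 15.3%. A touched bin was also less filled than on the large arms, with a median covered share of 38.5% in replicate 1 and 32.5% in replicate 2 on chromosome 4, against 61.4% and 59.6%. The medians were similar on U, with 34.0% and 33.3%, and were 38.4% and 44.0% on the Het scaffolds. Of the touched bins, 32 of 43 in replicate 1 and 52 of 58 in replicate 2 had a touched neighbour (74.4% and 89.7%), against 97.3% and 96.9% on the large arms, where touched bins are more frequent. The shares were 80.7% and 80.6% on U, and 89.8% and 94.0% on the Het scaffolds.

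**Figure D2:**
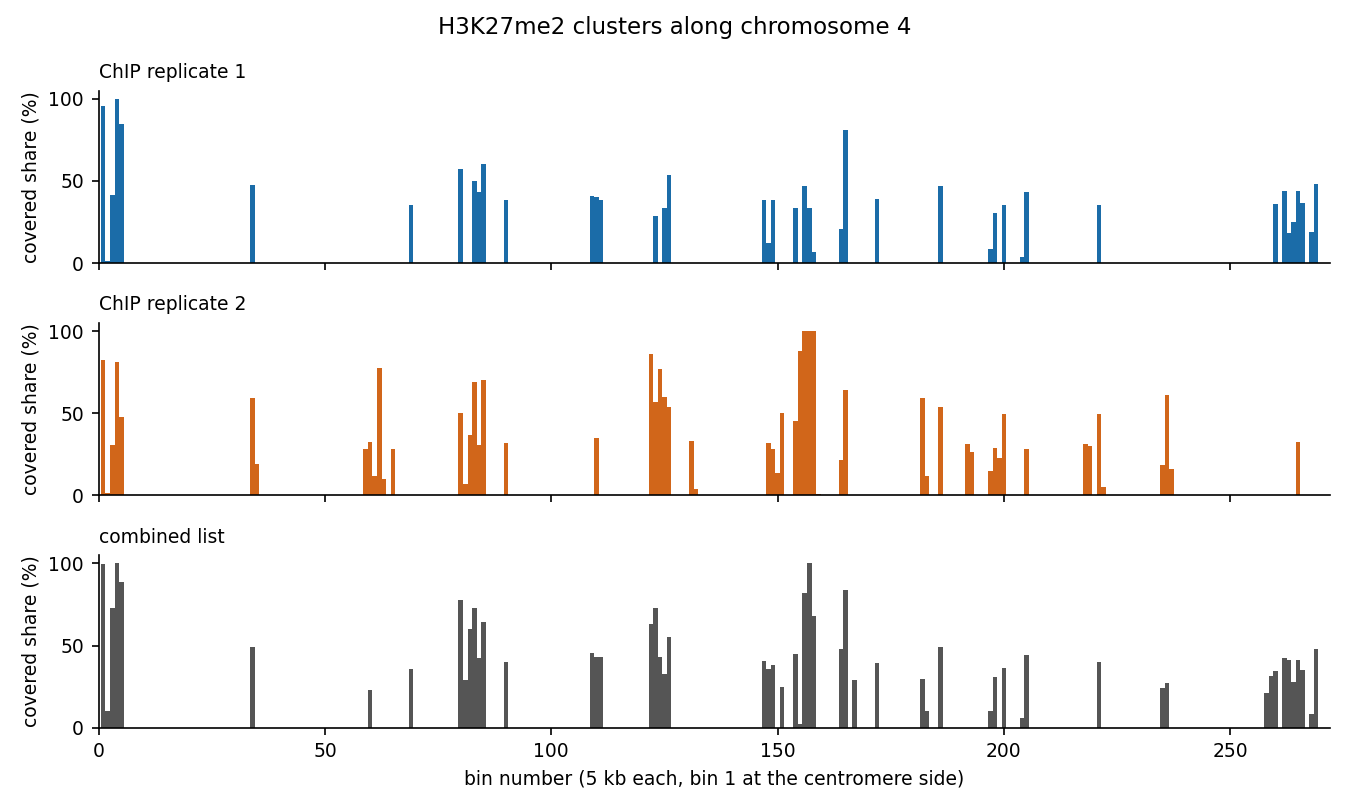
Covered share of each 5 kb bin (percent, y axis) by bin number (x axis, bin 1 at the centromere side) in ChIP replicate 1, ChIP replicate 2 and the combined list. Bins 1, 4 and 5 stand high in all lists while bin 2 is covered over 10.5% or less, bins 154 to 159 are filled mainly in replicate 2, and bins 260 to 269 carry clusters mainly in replicate 1 and the combined list.

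Over the 3 lists, 74 bins were touched by a cluster and 197 by none (72.7%, against a background of 20.6% on the large arms). The touched bins formed 26 runs, of which 6 held a single bin and the longest held 6 bins (30 kb). Runs touched in both replicates numbered 18, and 7 of these held at least 2 bins. The longest of the 18 was the 25 kb run at the start of the sequence, followed by runs of 15 kb from 410001 to 425000 and from 775001 to 790000. Runs of 10 kb lay at 620001 to 630000, 735001 to 745000, 815001 to 825000 and 980001 to 990000.

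The first 25 kb of the assembled sequence, at the centromere side, had the highest mean covered share of the 26 runs and the highest in replicate 1, while 3 other runs were fuller in replicate 2. Clusters covered 16.1 kb of it (64.6%) for replicate 1, 12.2 kb (48.6%) for replicate 2 and 18.6 kb (74.4%) for the combined list. Replicate 1 had clusters at 7 to 1449, 1666 to 5077 and 12942 to 24231, with scores of 1.94, 1.78 and 1.67. The score is the authors' own value for each region, read from the values as a log2 enrichment. Replicate 2 had clusters at 885 to 5076, 13473 to 15869 and 16807 to 22373, with scores of 1.03, 1.08 and 1.05. Each of these 6 clusters stood above the 97th percentile of scores in its own list. Of the bases marked here in replicate 2, 98.2% were also marked in replicate 1, and 74.0% of those of replicate 1 were marked in replicate 2. The bin from 15001 to 20000 was the fullest of the chromosome, with 100% in replicate 1 and 81.3% in replicate 2, and the bin at the very start followed with 95.6% and 82.3%.

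Most of the marking at the opposite end of the chromosome was in replicate 1 and the combined list. From base 1285001 to the end, a stretch of 66.9 kb, replicate 1 had 6 clusters over 13.5 kb (20.2%) and the combined list 9 clusters over 16.6 kb (24.8%). Replicate 2 had a single cluster of 1630 bp there (2.44%), at 1320689 to 1322318 with a score of 0.40, wholly inside a cluster of replicate 1 at 1320348 to 1322530. The other clusters of replicate 1 included 1295282 to 1297087 with a score of 2.17 and 1314237 to 1316236 with a score of 1.50, and replicate 2 had no cluster within 23.6 and 4.45 kb of them. This stretch and the first 25 kb were delimited after their values were seen. They held 15.8% and 18.8% of the marked bases of chromosome 4 in replicate 1, and 1.34% and 10.0% in replicate 2. In the inner part between them, replicate 1 covered 4.45% and replicate 2 covered 8.53%.

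Inside the chromosome the fullest bins lay in a few islands. The run from 395001 to 425000 held 4 clusters over 10.5 kb in replicate 1 and 6 clusters over 13.2 kb in replicate 2. Its bin from 420001 to 425000 was covered over 60.5% and 70.0%, that from 410001 to 415000 over 50.1% and 68.8%, and that from 395001 to 400000 over 57.0% and 50.1%. The bin from 820001 to 825000 reached 80.7% in replicate 1 and 63.9% in replicate 2. In these bins both lists were filled to a similar degree, but the bins from 400001 to 410000 of the same run were free in replicate 1 and covered over 6.92% and 36.6% in replicate 2.

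The island from 765001 to 795000 was much fuller in replicate 2. It held the longest cluster of the chromosome, 770881 to 790044, which spanned 19.2 kb with a score of 0.81 in replicate 2. Replicate 1 had 3 clusters in the island, at 767998 to 769668, 775368 to 777726 and 783326 to 785351, with scores of 0.59, 0.79 and 0.59. Clusters of replicate 1 covered 22.9% of the long cluster, and the combined list covered 65.1% of it. The covered share of the island was 20.2% by replicate 1, 72.3% by replicate 2 and 49.4% by the combined list.

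The island from 605001 to 630000 differed in a finer way. Replicate 2 had 6 clusters over 16.7 kb (66.7%), and replicate 1 had 2 clusters over 5.78 kb (23.1%). Both shared the cluster at 623331 to 627665 in replicate 1 and 623642 to 627676 in replicate 2, with scores of 0.78 and 0.66. The other cluster of replicate 1, at 613352 to 614799, had the highest score of the chromosome in any list, 2.57, and ranked number 29 among all clusters of replicate 1. No cluster of replicate 2 touched it, yet clusters of replicate 2 flanked it, ending 41 bases before it and starting 804 bases after it. The combined list spanned this gap with a cluster at 611369 to 617164 and a score of 0.58.

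Some runs were carried by a single replicate. From 290001 to 315000 replicate 2 had 5 clusters over 8.02 kb, with scores of 0.40 to 0.57, where replicate 1 had none and the combined list kept 1.15 kb. Replicate 2 alone also marked 3.58 kb from 905001 to 915000, 2.89 kb from 955001 to 965000, 3.08 kb from 1085001 to 1095000 and 4.76 kb from 1170001 to 1185000. Replicate 1 alone marked 1.77 kb from 340001 to 345000 and 1.96 kb from 855001 to 860000. In the run from 540001 to 555000 it had 3 clusters over 5.96 kb, where replicate 2 had a single cluster of 1.74 kb.

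Free runs were measured on chromosome 4 alone, so their lengths have no background here. In 9 runs of at least 10 bins no list had a cluster, and together these held 147 of the 197 free bins. The longest went from 25001 to 165000 (28 bins), directly beside the marked centromere-side end. It was followed by 175001 to 290000 (23 bins), 1185001 to 1285000 (20 bins), 450001 to 540000 (18 bins) and 660001 to 730000 (14 bins). To the base, 87.5% of the chromosome lay in no cluster of any list. Within replicate 1 the longest free stretch was 190.8 kb, from 1104454 to 1295281, and within replicate 2 it was 143.1 kb, from 22374 to 165424.

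By windows of 100 kb the highest mean covered share was that of 700001 to 800000, where replicate 1 covered 10.5% and replicate 2 covered 27.9%. The window at the start of the sequence had 16.1% and 12.2%. The lowest was 1200001 to 1300000, with 1.81% and 0%, next to 200001 to 300000, with 0% and 3.04%. Of the 14 windows, the last of them shorter, 9 were higher in replicate 2 and 5 in replicate 1. The distal 675.9 kb had 7.55% ± 2.04 and the centromere-side 675.9 kb had 7.77% ± 1.68 (SD, n = 2 each), a difference within the spread of the replicates.

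The clusters of chromosome 4 were mostly short and separate. Replicate 1 had 34, replicate 2 had 47 and the combined list had 51, with median lengths of 2029, 1905 and 2075 bp. On the large arms the medians were 2467, 2276 and 2653 bp. They were 2186, 2179 and 2142 bp on the Het scaffolds, and 1986, 1947 and 1847 bp on U. Clusters of at least 10 kb numbered 1 in each list, and in replicate 1 and the combined list this was the one at the centromere-side end (11.3 and 11.5 kb). This count was made on chromosome 4 alone and has no background here. Per Mb there were 25.2 clusters in replicate 1 and 34.8 in replicate 2, against 122.4 and 116.0 on the large arms. The Het scaffolds had 63.6 and 85.7 per Mb, and U had 39.0 and 37.3.

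The touched bins of the replicates coincided in part. Of the 271 bins, 30 were touched in both replicates (11.1%, background 60.7%), 13 in replicate 1 alone (4.80%, background 11.7%) and 28 in replicate 2 alone (10.3%, background 3.99%). For bins of the Het scaffolds the same shares were 35.0%, 5.59% and 17.3%, and for bins of U 14.9%, 9.85% and 7.91%. The 30 bins made up 69.8% of those touched in replicate 1 and 51.7% of those touched in replicate 2, where the shares on the large arms were 83.8% and 93.8%. The Het scaffolds had 86.2% and 66.9%, and U had 60.2% and 65.4%. Shared bases were 51.3 kb, or 59.8% of what replicate 1 marked and 42.3% of what replicate 2 marked, against 71.3% and 82.1% on the large arms. The Jaccard index (bases in both lists divided by bases in at least 1) was 0.33 on chromosome 4 and 0.617 on the large arms, and in the 86 windows of the large arms it ran from 0.398 to 0.773. It was 0.343 on U and 0.445 on the Het scaffolds, so a value near that of chromosome 4 was also found on U. Of the 86 windows, 0 were covered as little as chromosome 4. Whether covered share bears on the index was not tested. No error over samples can be given for it, because it uses both ChIP samples at once.

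Agreement varied along the chromosome. The Jaccard index was 0.73 in the first 25 kb, 0.30 in the inner part and 0.12 in the last 66.9 kb. These stretches were delimited after their values were seen, and the first holds only bins touched in both replicates. By fixed windows of 100 kb the index was also 0.73 at the start. It was 0.595 from 100001 to 200000, 0.601 from 400001 to 500000 and 0.559 from 800001 to 900000. The remaining windows had 0 to 0.338. Over the 271 bins the covered shares of the replicates gave Spearman's rho of 0.549 and Pearson's r of 0.591, against 0.784 and 0.778 over the bins of the large arms. The bins of U gave 0.557 and 0.624, and those of the Het scaffolds 0.652 and 0.667. In either replicate 71 bins were touched (26.2%, background 76.4%), and over these rho was 0.151 and r was 0.259, against 0.658 and 0.645 on the large arms. By the choice of bins, 41 of the 71 have 0% in one replicate, which bears on both values. For bins touched in either replicate, rho and r were 0.183 and 0.318 on U and 0.406 and 0.467 on the Het scaffolds. Neighbouring bins share clusters and the libraries are the same for all bins, and the coefficients are a description. Replicate 2 exceeded replicate 1 by at least 50 percentage points in 10 bins, and replicate 1 exceeded replicate 2 by that much in 0 bins. No matching count was made on the large arms, so whether these numbers are particular to chromosome 4 was not tested. The largest gaps were 7.02% in replicate 1 and 100% in replicate 2 from 785001 to 790000, 0% and 87.8% from 770001 to 775000, and 0% and 85.9% from 605001 to 610000. They were followed by 0% and 77.7% from 305001 to 310000 and 0% and 77.1% from 615001 to 620000.

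**Figure D3:**
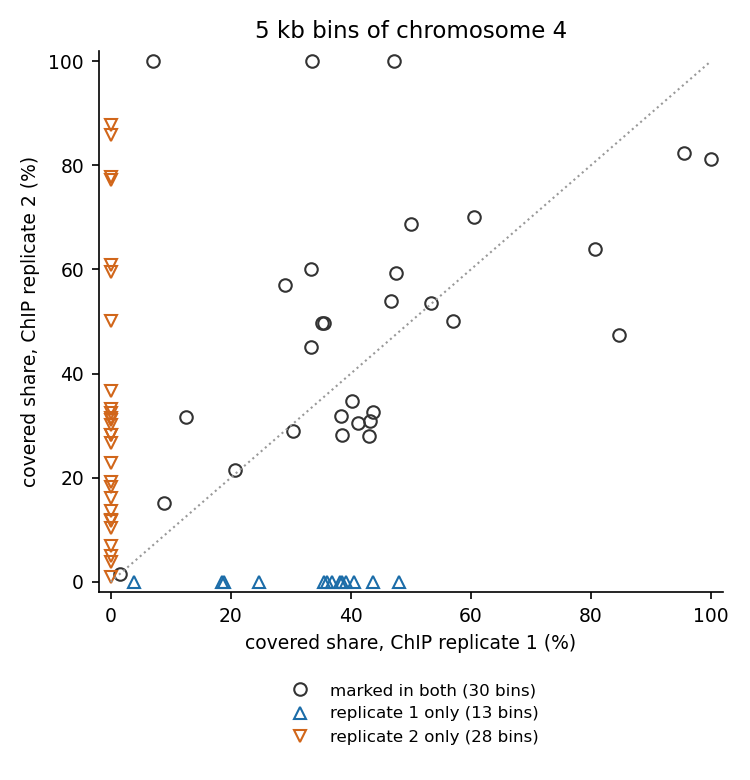
Covered share of 71 bins in ChIP replicate 1 (x axis, percent) and ChIP replicate 2 (y axis, percent), 1 symbol per bin, with equality as a dotted line. Points on the axes are the 13 bins touched in replicate 1 alone, none above 48.1%, and the 28 bins touched in replicate 2 alone, which reach 87.8%.

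Where clusters of both replicates overlapped, their borders were compared. The 21 reciprocally best overlapping pairs of chromosome 4 had a median distance between matching borders of 267.5 bp, against 373 bp over 9928 pairs of the large arms. Of 42 borders, 20 lay within 250 bp of their match (47.6%, against 40.9% on the large arms). Clusters are longer on the large arms, and whether length bears on this distance was not tested. In 19 of the 21 pairs the overlap reached 50% of the longer cluster (90.5%, against 75.7% on the large arms). The closest pair joined 165414 to 167786 of replicate 1 with 165425 to 167773 of replicate 2, with borders 11 and 13 bp apart and scores of 0.95 and 0.68. The least alike was the long cluster of replicate 2 at 770881, whose border lay 12.3 kb from that of its partner.

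Clusters without a partner were of different kinds. In replicate 1 there were 11 of 34, of which 5 lay in the last 66.9 kb, and in replicate 2 there were 25 of 47, all in the inner part. A cluster of the other replicate was thus touched by 67.6% of the clusters of replicate 1 and 46.8% of those of replicate 2, against 76.9% and 87.7% on the large arms. The same shares were 82.4% and 58.5% on the Het scaffolds, and 55.1% and 58.1% on U. Of the clusters without a partner, 3 in replicate 1 and 7 in replicate 2 lay less than 1 kb from a cluster of the other list, so that the lists marked neighbouring sequence. The clusters at 733087 to 735624 in replicate 1 and 735671 to 737251 in replicate 2 were 46 bases apart. Another 5 in replicate 1 and 12 in replicate 2 lay at least 10 kb away, up to 34.2 and 74.2 kb.

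The combined list followed replicate 1 more closely than replicate 2 on this chromosome. It held 98.7% of what replicate 1 marked and 65.9% of what replicate 2 marked, against 98.8% and 95.7% on the large arms and 99.6% and 81.5% on the Het scaffolds. Of the clusters of replicate 1, 34 of 34 were touched by a combined cluster, and of those of replicate 2, 33 of 47 were (100% and 70.2%, against 99.2% and 97.4% on the large arms and 100% and 86.2% on the Het scaffolds). The 14 that the combined list lacked had scores of 0.38 to 0.57 and lengths of 1391 to 2888 bp, and none of them had a partner in replicate 1. Among them were 304420 to 306232, 306778 to 308340 and 308911 to 310515, which fill 77.7% of a bin in replicate 2. Of the 28 bins touched in replicate 2 alone, the combined list touched 11, and of the 13 touched in replicate 1 alone it touched 13. On the large arms it touched 786 of 951 bins of replicate 2 alone and 2669 of 2789 of replicate 1 alone. It also had 13.9 kb in neither replicate (10.9% of its bases, against 9.21% on the large arms), and in 3 bins it alone had a cluster (1.11%, background 3.02%). These bins were 830001 to 835000 and the run from 1285001 to 1295000. The sources used here do not say how the combined list was made, and the reason was not tested.

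Median scores on chromosome 4 were slightly lower than on the large arms. The median was 0.59 for replicate 1, 0.52 for replicate 2 and 0.44 for the combined list, against 0.67, 0.62 and 0.48 on the large arms. The difference within the libraries was -0.08 and -0.10 on the log2 scale, on average -0.09 ± 0.02 (SD over the 2 libraries; exact sign-flip permutation p = 0.5, the smallest possible here). With only the clusters scored at or above the median of their list the mean difference was 0.03, and it was above 0 in replicate 1 and below 0 in replicate 2, so the direction turned under that filter. It stayed below 0 in both replicates with clusters of at least 2 kb and without the ends of the sequence. Compared with the Het scaffolds, with medians of 0.95 and 0.84, chromosome 4 was lower by 0.35 and 0.32 within replicates 1 and 2. Below the median of their own list lay 18 of 34 clusters in replicate 1, 34 of 47 in replicate 2 and 28 of 51 in the combined list. By construction a list has as many clusters below its median as above it, so replicate 1 was close to an even split. The top 10% of their own list held 6 of the 34 clusters, 3 of the 47 and 7 of the 51. That is more than 10% in replicate 1 and the combined list, and less in replicate 2.

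Most of the high scores sat at the ends. Scores of at least 1 were found in 7 clusters of replicate 1, of which 3 lay in the first 25 kb and 2 in the last 66.9 kb, and in 3 clusters of replicate 2, all in the first 25 kb. In the inner part the medians were 0.56 in replicate 1 and 0.51 in replicate 2. The highest combined score, 1.88, belonged to a cluster at 9618 to 11613, which neither replicate had and whose score is exactly tied with that of another cluster. In the last 66.9 kb the combined clusters at 1288943 to 1290576, 1292470 to 1293475 and 1311769 to 1312849 were likewise in neither replicate, with tied scores of 0.82, 1.16 and 1.23. Spearman's rho between the scores of the 21 pairs was 0.598 and Pearson's r was 0.78, against 0.592 and 0.622 over pairs of the large arms. These values are a description across clusters of the same libraries. The score was higher in replicate 1 in 14 of the 21 pairs (66.7%, close to the 70.0% of pairs on the large arms). The largest differences were 0.74 and 0.62, in the pairs at 1666 and 12942 of the centromere-side end. Those pairs also had the highest scores of the 21 in both replicates, and r without them was not computed.

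**Figure D4:**
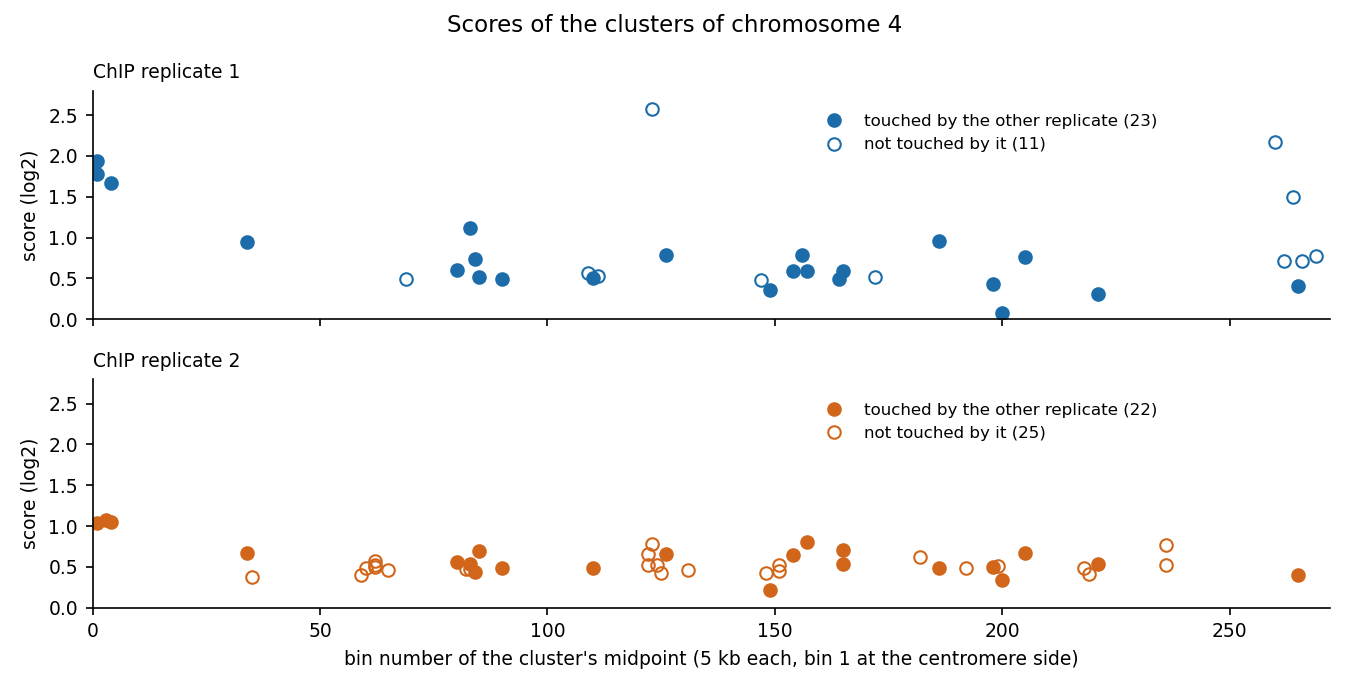
Score of each cluster (log2, y axis) by the bin number of its midpoint (x axis) in ChIP replicate 1 and ChIP replicate 2, with filled points for clusters touched by the other replicate and open points for the rest. The clusters of the first 25 kb are high and filled in both, and the high points at the distal end of replicate 1, up to 2.17, are open.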

How the data were processed

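ChIP-seq regions were used from 2 ChIP samples, each with an input that has no list of its own here. The submitters' processing notes name Bowtie 0.12.7, and the file headers name FlyBase release 5 for the coordinates. The authors computed a score for each region before they deposited the lists, here read as a log2 value; no header or label says how. It is read so because 398, 78 and 246 pairs of distinct scores lie exactly 1 apart (within 1e-09) in replicate 1, replicate 2 and the combined list, against 0 at the step that a doubling makes on a natural or decimal log scale. The sources used here do not give the caller, its thresholds or how input was scaled. Depth is unknown, so no counting interval was given.

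Regions typed as enriched were kept, the union of their bases was taken per list, and each 5 kb bin received its covered share and the score weighted by covered bases. A bin with at least 1 covered base counts as touched. Coordinates count from 1. No region on chromosome 4 ran past its end. Bin shares and shared bases were tested on simulated data, where 50 of 50 pairs of lists gave the values of a count base by base. Values are given per replicate with mean and SD, and within-library differences with an exact sign-flip permutation test. Python 3.11.15, numpy 2.4.6, pandas 2.3.3 and scipy 1.17.1 were used, and matplotlib 3.10.9 for figures.

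Named regions are the 10 bins with the highest mean share, runs touched in both replicates, the 5 longest free runs, the 3 longest and 3 highest-scored clusters of each list, the 5 bins with the largest differences of at least 50 percentage points in each direction, and bins of the combined list alone. Other regions were chosen after their values were seen. The bins, comparisons and rules were chosen with earlier results of these data known.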

Additional observations from a re-analysis of the deposited data

How the results depend on the processing

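The covered share of chromosome 4 lay below that of the large arms in 7 of 7 alternatives (-43.7 to -23.3 percentage points) and below that of the Het scaffolds in 7 of 7 (-20.3 to -11.1). Its own share was 3.80% when clusters below the median score of their list were dropped and 5.39% with clusters of at least 2 kb. The mean number of touched bins was 22 and 33.5 under these filters, 88 with bins of 2 kb and 14.5 when at least 50% of a bin had to be covered. These settings change such totals by construction. The share of touched bins that both replicates touched was 42.3%, and 31.8% to 51.5% over 8 alternatives. It was 75.4% and 55.4% for replicates 1 and 2 against the combined list, which takes in much of both. The Jaccard index differed from that of the large arms by -0.29, by -0.24 at or above the median score, -0.26 at 2 kb or more, -0.30 after joining clusters within 1 kb and -0.32 without the ends of the sequence. The score difference to the large arms was -0.09, and it was -0.0397 in the combined list, -0.0475 at 2 kb or more, -0.11 without the ends and 0.0255 at or above the median score; the cause was not tested. The distal minus the centromere-side part differed by -0.22 percentage points, -0.477 to 0.0309 with either replicate left out, 0.0812 in the combined list, 0.0840 at 2 kb or more and -0.75 at or above the median score, so its direction is not settled. Leaving out the ends and the alternatives for the Jaccard difference were chosen after seeing the data. No paired analysis was possible because the results set parts of 1 library against each other and the matching numbers belong to input, for which no list was used. What depth limits was not measured, since the lists give none.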

Other observations

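The combined list types 30 regions as depleted, and 1 of them lies on chromosome 4, at 426345 to 427775 (1431 bp) with a score of -0.03. No enriched cluster of any list touched it, and the nearest combined cluster, in the island from 395001 to 425000, lay 2.38 kb away. Replicates 1 and 2 have no depleted region on chromosome 4.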
